A study of Mus musculus with 6 samples.

Results

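Bone-forming osteoblasts control bone-resorbing osteoclasts through secreted and membrane-bound cytokines, and the levels of 4 of their genes are described here: Tnfsf11, which encodes receptor activator of NF-κB ligand (RANKL), Tnfrsf11b, which encodes osteoprotegerin (OPG), Csf1, which encodes macrophage colony-stimulating factor (M-CSF), and Il34, which encodes interleukin-34. They were chosen by gene symbol from the 19938 genes measured on the arrays, and each of the 4 was represented by 1 probeset (10421737, 10428604, 10501164 and 10581664, in the order named). RNA was measured on 6 Mouse Gene 1.0 ST arrays of primary osteoblasts from 3 male wild-type C57BL6 mice aged 8 to 12 weeks, numbered 2, 4 and 5. The cells had grown out of long bones and had been differentiated for 14 days in osteogenic medium. From each mouse, 1 culture then received recombinant murine C5a, the complement fragment that acts through the receptor C5aR1, for 4 h in proliferation medium, and 1 culture was left unstimulated in the same medium for 4 h. The comparison addressed how C5a changes gene expression in osteoblasts, with C5a and unstimulated cultures of the same animal in each pair (n = 3 each). Levels are given on the log2 intensity scale, on which a difference of 1 is a doubling. Array medians ran between 5.89 and 5.93, and the number of arrays limits the precision.

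Osteoclasts form from precursors of the macrophage lineage, which need M-CSF to survive and divide and RANKL to fuse and mature. RANKL acts through the receptor RANK on the precursor, and OPG, a soluble member of the TNF receptor family, binds RANKL and keeps it from RANK, so that the balance of the 2 proteins sets how much RANKL reaches its receptor. IL-34 is a second ligand of the M-CSF receptor and can take the place of M-CSF in osteoclast cultures. Osteoblasts, osteocytes and stromal cells of bone make all of these factors.

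The cultures held markers of more than one cell type, and the arrays of mouse 5 stood apart. Of the 20 osteoblast and osteocyte markers, 16 were named by a probeset, and their mean level was 8.74, 9.29 and 8.05 with C5a in mice 2, 4 and 5, against 8.95, 9.42 and 8.13 in unstimulated cultures. Col1a1, the main collagen of bone, lay between 13.32 and 13.79 on every array. Ibsp, a matrix protein of mineralizing osteoblasts, was 28.6-fold lower in mouse 5 than in the other mice. Of the 16 markers, 10 were lower on both arrays of mouse 5 than on every other array. The 25 macrophage and osteoclast markers averaged 8.73, 9.01 and 6.63 with C5a and 8.86, 9.23 and 6.40 without it, and 19 of them were lower on both arrays of mouse 5 than on every other array. Lymphocyte markers were low throughout, with means of 5.12 to 5.16 with C5a and 5.12 to 5.25 without. In bulk RNA, fewer cells of a type and less RNA per cell cannot be told apart. The 4 cytokine genes did not share the pattern of mouse 5, whose mean differed from that of the other mice by -0.14 for Tnfsf11, -0.24 for Tnfrsf11b, -0.06 for Csf1 and 0.12 for Il34.

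The stretches just upstream of 2 of the 4 genes are printed, Tnfsf11 and Csf1, which were the members with an entry in the promoter table used. Each is the 250 bases before the annotated start, taken from RefSeq on the mouse build GRCm38.p6 and written 5′ to 3′ in the direction of the gene. Both genes lie on the minus strand, Csf1 with chr3:107760470-107760719 and Tnfsf11 with chr14:78308044-78308293. Capitals mark matches to motif letters that were searched on both strands.
Csf1: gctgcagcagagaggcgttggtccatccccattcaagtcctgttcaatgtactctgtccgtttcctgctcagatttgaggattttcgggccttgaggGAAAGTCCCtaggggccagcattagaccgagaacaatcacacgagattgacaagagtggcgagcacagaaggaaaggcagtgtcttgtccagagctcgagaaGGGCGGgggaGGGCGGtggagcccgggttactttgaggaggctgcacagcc
Tnfsf11: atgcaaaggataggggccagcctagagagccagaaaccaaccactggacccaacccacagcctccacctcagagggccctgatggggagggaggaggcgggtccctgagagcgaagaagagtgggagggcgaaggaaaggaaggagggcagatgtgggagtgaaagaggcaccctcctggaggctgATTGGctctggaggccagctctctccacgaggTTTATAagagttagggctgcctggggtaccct
In the Csf1 stretch, the letters GGGACTTTC, a form of the NF-κB motif, stood on the opposite strand between positions -153 and -145 from the start. These letters occurred in 95 of 32851 promoter stretches of the same length (0.289%). The same stretch held the Sp1 box GGGCGG at 2 places, starting at -51 and -41, and 32.7% of all stretches held it at least once. The Tnfsf11 stretch held the TATA box letters TATAAA on the opposite strand between -32 and -27 (12.4% of stretches) and the CCAAT box on the opposite strand between -64 and -60 (33.8%). Neither stretch held the AP-1 letters TGANTCA (6.75%), the cAMP response element TGACGTCA (1.55%) or the RUNX letters TGTGGT (14.0%). None of the motifs searched overlapped another. A match describes the letters only, and binding was not measured.

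RANKL mRNA did not move one way in the 3 mice. Tnfsf11 measured 9.09, 8.76 and 8.41 with C5a in mice 2, 4 and 5, against 8.95, 8.76 and 9.08 in the unstimulated cultures. The groups overlapped, and the lowest value of all was the C5a culture of mouse 5. The means were 8.76 ± 0.34 with C5a and 8.93 ± 0.16 without (SD, n = 3 each), a difference of -0.17 with a standard error of 0.19 and a 95% interval of -0.63 to 0.28. The adjusted p from limma was 0.866, and it was 0.749 with the mouse as a block. Within mice 2, 4 and 5 the change was 0.14, 0.01 and -0.67, so that the direction of the mean came from mouse 5. Without the C5a culture of mouse 5 the difference was -0.003, and without both cultures of this mouse it was 0.07.

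OPG mRNA was higher with C5a in all 3 mice, by very unequal amounts. Tnfrsf11b measured 12.23, 10.60 and 10.79 with C5a in mice 2, 4 and 5, against 10.18, 10.15 and 10.31 in the unstimulated cultures. The groups did not overlap, and the C5a culture of mouse 2 lay far above the other two. The means were 11.20 ± 0.89 with C5a and 10.21 ± 0.08 without, a 1.99-fold difference (log2 0.99, standard error 0.43, 95% interval -0.05 to 2.04). The adjusted p from limma was 0.486. Within a mouse the level was 4.14-fold higher in mouse 2, 1.36-fold higher in mouse 4 and 1.39-fold higher in mouse 5. With the mouse as a block the interval was 0.08 to 1.90 and the adjusted p from limma 0.27. Without the C5a culture of mouse 2 the difference was 0.48, and without both cultures of this mouse 0.46.

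**Figure D1:**
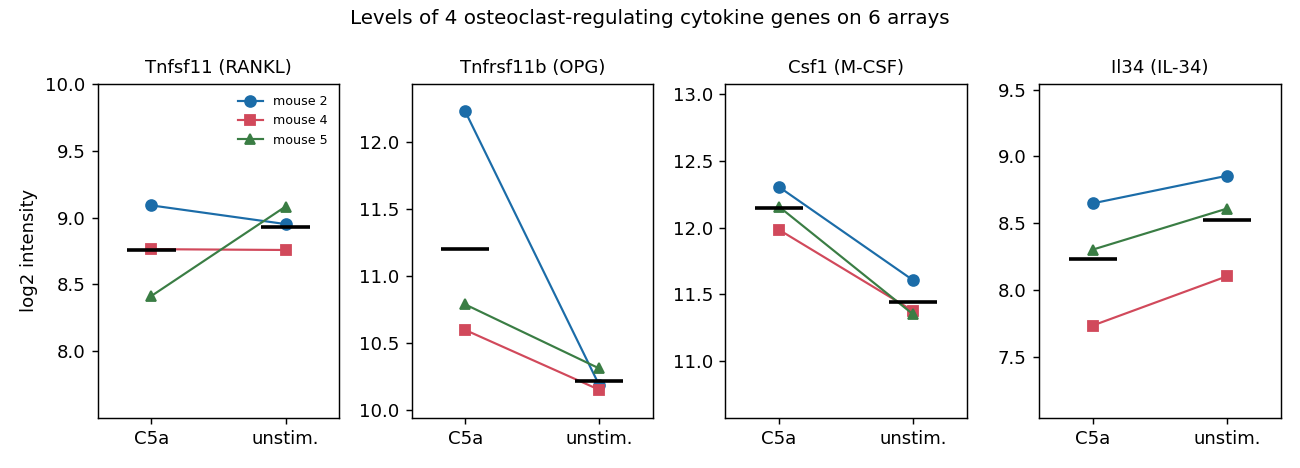
Log2 intensity of Tnfsf11, Tnfrsf11b, Csf1 and Il34 in C5a-stimulated and unstimulated (unstim.) osteoblast cultures of mice 2, 4 and 5. Each line joins the 2 cultures of 1 mouse, short bars are group means, and every panel spans the same number of log2 units. Csf1 and Tnfrsf11b were higher with C5a in all mice, Il34 was lower in all mice, and Tnfsf11 was mixed.

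The 2 genes together gave a lower ratio of RANKL to OPG mRNA with C5a in each mouse. The ratio of Tnfsf11 to Tnfrsf11b was 3.76-fold lower with C5a in mouse 2, 1.36-fold lower in mouse 4 and 2.22-fold lower in mouse 5. On average the log2 ratio differed by -1.17 (SD of the 3 changes 0.73), a 2.24-fold lower ratio. Values of the ratio did not overlap between the groups, and the two-sided exact permutation p was 0.1, the smallest that 3 against 3 cultures can give. Flipping signs within mice gave 0.25, also the smallest possible. In mouse 2 the shift came from Tnfrsf11b, in mouse 5 from both genes, with -0.67 for Tnfsf11 and 0.48 for Tnfrsf11b, and in mouse 4 from Tnfrsf11b alone, at 0.45. Without both cultures of mouse 2 the average change of the log2 ratio was -0.79. Only the change of the ratio is given, since the probesets of different genes do not share a scale.

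M-CSF mRNA was higher with C5a by similar amounts in all 3 mice. Csf1 measured 12.30, 11.98 and 12.16 with C5a in mice 2, 4 and 5, against 11.61, 11.38 and 11.35 in the unstimulated cultures. Every C5a culture was above every unstimulated one. The means were 12.15 ± 0.16 with C5a and 11.44 ± 0.14 without, a 1.63-fold difference (log2 0.70, standard error 0.11, 95% interval 0.42 to 0.98). Within mice 2, 4 and 5 the change was 0.70, 0.61 and 0.81 (SD 0.10). The unadjusted p from limma was 0.000829, rank 191 of 35556 probesets, and the adjusted p was 0.151. With the mouse as a block the interval narrowed to 0.51 to 0.90 and the adjusted p from limma was 0.0869, so that Csf1 missed the adjusted threshold of 0.05 in both fits.

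IL-34 mRNA, for the other ligand of the M-CSF receptor, was slightly lower with C5a in each mouse. Il34 measured 8.65, 7.73 and 8.30 with C5a in mice 2, 4 and 5, against 8.86, 8.10 and 8.61 in the unstimulated cultures. The groups overlapped because the mice differed more than the treatments, with mouse 4 low and mouse 2 high in both. The means were 8.23 ± 0.46 with C5a and 8.52 ± 0.38 without, a 1.23-fold lower level (log2 -0.29, standard error 0.29, 95% interval -0.998 to 0.41, adjusted p from limma 0.844). Within mice 2, 4 and 5 the change was -0.21, -0.37 and -0.31 (SD 0.08). Blocking by mouse lowered the standard error to 0.07, and the interval was then -0.48 to -0.10, the unadjusted p 0.0109 and the adjusted p from limma 0.164. The share of probesets lower with C5a at an unadjusted p under 0.05 in this fit was 8.58%. Without the C5a culture of mouse 4 or the unstimulated culture of mouse 2, where the difference between mice enters the mean, the difference was -0.05 and -0.13. Without the C5a culture of mouse 2 or the unstimulated culture of mouse 4 it was -0.50 in both cases.

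The ratio of Csf1 to Il34, the 2 ligands of 1 receptor, was about as far apart between the groups in every mouse. It was higher with C5a by 0.90, 0.98 and 1.11 on the log2 scale in mice 2, 4 and 5, on average 0.997 (SD 0.11). The groups did not overlap and the two-sided exact permutation p was 0.1, the smallest possible, with 0.25 for sign flips within mice, again the smallest.

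**Figure D2:**
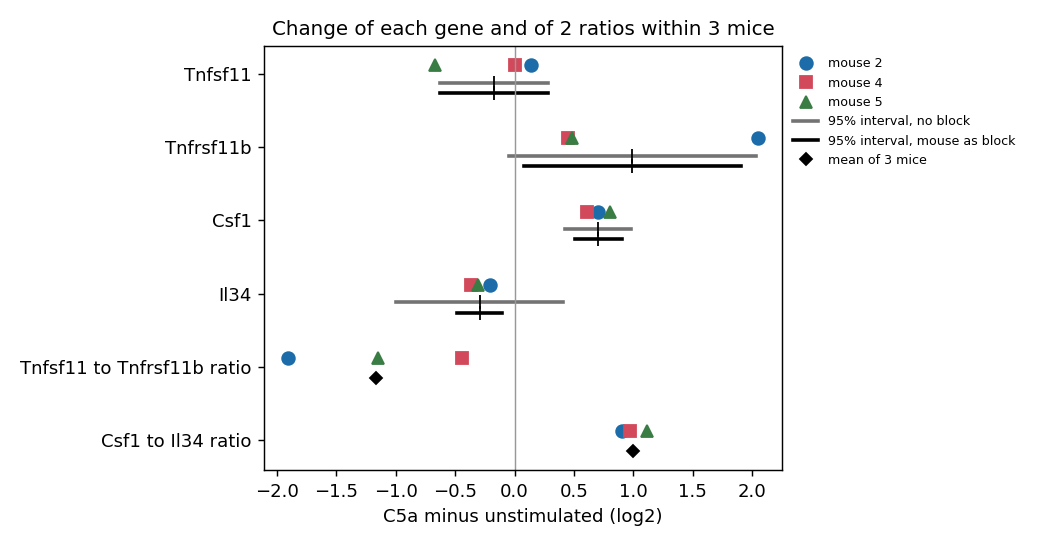
Change with C5a within mice 2, 4 and 5 (points, log2 units, C5a minus unstimulated) for the 4 genes and the 2 log2 ratios, with the 95% interval from limma without and with the mouse as a block for genes and the mean of 3 mice (diamond) for ratios. The changes of Csf1 lie between 0.61 and 0.81 and those of Il34 between -0.37 and -0.21, while those of Tnfrsf11b run between 0.45 and 2.05.

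The 4 genes are set here beside all probesets, and their calls depended on the threshold. None passed an adjusted p under 0.05 with limma, a threshold that 5 of 35556 probesets passed (0.0141%), and none passed it with the mouse as a block, where 4 probesets did (0.0112%). The methods of the study used an unadjusted p under 0.05 with a fold change of 1.5. Read as at least 1.5-fold, these thresholds were passed by 923 probesets with limma (2.60%), 523 of them higher with C5a (1.47%), and Csf1 was among the latter. With the methods' t-test Csf1 passed too (374 probesets higher, 1.05%). With the mouse as a block Csf1 and Tnfrsf11b passed (608 higher, 1.71%). Csf1 and Tnfrsf11b were 2 of 4 genes with all C5a values above all unstimulated values, against 7.89% of all probesets, and both were higher in 3 of 3 mice, as were 18.3% of probesets. Il34 was lower in 3 of 3 mice, as were 17.7% of probesets. Counted over the 19938 genes, 3791 were higher and 4575 lower in 3 of 3 mice. Exact permutation of the 6 cultures gave 0.1 for Tnfrsf11b and Csf1, the smallest two-sided p possible, 0.5 for Il34 and 0.7 for Tnfsf11.

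The receptors and partners of the 4 cytokines did not pass the methods' thresholds in either direction (0 of 12 measured genes, also with the mouse as a block), and their median change was 0.02, against -0.01 over all 19938 genes. Of all genes 3.53% passed without the block, and 443 as higher and 440 as lower with it. A count of 0 of 12 is near these shares. Csf1r, the receptor of M-CSF and IL-34, measured 10.10, 10.21 and 7.23 with C5a in mice 2, 4 and 5 and 10.34, 10.42 and 6.68 without, so that it was 9.93-fold lower in mouse 5, like the macrophage markers it belongs to. Tnfrsf11a, which encodes RANK, measured 6.92, 6.80 and 6.49 with C5a and 6.999, 7.07 and 6.17 without. Trem2 and Tyrobp, which encode costimulatory proteins of osteoclast precursors, were 6.76-fold and 12.1-fold lower in mouse 5. For these 4 genes the spread between mice was larger than any change with C5a. Sdc1, which encodes syndecan-1, a binding partner of IL-34, had the smallest p of the list, differing by 0.27 (standard error 0.10, adjusted p 0.415 from limma). Its change was 0.34, 0.48 and 0.006 in mice 2, 4 and 5. The groups barely missed overlapping, at 9.464 with C5a against 9.458 without, both in mouse 5. Of all probesets, 7.89% had no overlap with C5a higher. Traf5 and Traf2, adaptors of the TNF receptor family, differed by 0.41 and 0.27, and Fzd1, a Wnt receptor, by -0.23, with overlap of the groups in each case.

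RANKL and M-CSF are made as membrane proteins that proteases release, and 3 of the 9 measured genes for such proteases and their inhibitors passed the methods' thresholds, all higher with C5a and all higher in 3 of 3 mice. Over all genes 380 of 19938 passed as higher, and 3791 were higher in 3 of 3 mice (18.3% of probesets). The median change of the 9 was 0.08. Adam19, a membrane protease able to cleave RANKL, measured 10.36, 9.78 and 10.48 with C5a in mice 2, 4 and 5, against 8.45, 8.80 and 9.04 without, a 2.72-fold difference (log2 1.44, standard error 0.23, adjusted p from limma 0.151). Timp3, an inhibitor of this class of proteases, measured 13.64, 12.76 and 13.01 with C5a and 12.57, 11.54 and 11.82 without, 2.23-fold higher (adjusted p 0.277). Both separated the groups without overlap. Timp1, another inhibitor of metalloproteinases, was 1.56-fold higher (adjusted p 0.362), with overlap. With the mouse as a block the adjusted p from limma was 0.0919 for Adam19, 0.0704 for Timp3 and 0.108 for Timp1, all above 0.05. The other members lay close to 0, with -0.17 for Adam17, which releases M-CSF and many other membrane proteins, -0.13 for Adam10 and -0.15 for Mmp14, both able to cleave RANKL. Hence the list held a protease and 2 inhibitors among its higher genes, and protein release was not measured.

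Among 17 measured receptors and regulators upstream of RANKL, 2 passed the methods' thresholds, both lower with C5a, and the median change was -0.01. In the same fit 323 of all 19938 genes passed as lower. Zfp36, which encodes a protein that destabilises mRNAs with AU-rich elements, measured 8.92, 8.60 and 8.48 with C5a in mice 2, 4 and 5 and 12.16, 11.64 and 11.77 without. It was the 1 gene of all lists past the adjusted threshold, falling by 3.19 on the log2 scale (9.11-fold, adjusted p from limma 0.0333). Without any 1 culture or mouse the adjusted p of Zfp36 ran from 0.0584 to 0.41, so that this call needed all 6 arrays, while the difference stayed between -3.32 and -3.03. Lifr, a receptor subunit for the cytokines LIF and oncostatin M, measured 8.27, 8.57 and 8.38 with C5a against 9.68, 9.49 and 9.42 without, 2.18-fold lower (adjusted p 0.105). Neither gene overlapped between the groups, and the share of all genes without overlap in this direction was not counted. Among receptors of known inducers of RANKL, Vdr, the vitamin D receptor, changed by 0.06, 0.81 and -0.27 in mice 2, 4 and 5, and Ptger4, a prostaglandin E2 receptor, by 0.71, -0.09 and -0.44. Osmr, the oncostatin M receptor, was lower in 3 of 3 mice, as were 17.7% of probesets and 4575 of the 19938 genes. Its mean difference was -0.43 (adjusted p from limma 0.779, and 0.175 with the mouse as a block). Pth1r, the parathyroid hormone receptor, differed by -0.16, and Il6st, the signalling subunit shared by the IL-6 family, by -0.04. Ptger2, another prostaglandin E2 receptor, differed by 0.41 without overlap of the groups (adjusted p 0.379), and Creb1, a cAMP-responsive transcription factor, by 0.18 with overlap (adjusted p 0.50).

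Regulators upstream of OPG, mostly of the Wnt and Notch pathways, gave no call among 11 measured genes, with or without the mouse as a block. This is near the share over all genes, 3.53% without the block, and 443 higher and 440 lower of 19938 with it. The median change of the 11 regulators was -0.04. Those with the smallest p were Notch1 at 0.39, its ligand Jag1 at 0.49, the Wnt coreceptor Lrp6 at -0.51 and the transcription factor Lef1 at 0.11, and none of them changed direction between mice (adjusted p of 0.581 to 0.765 from limma). Ctnnb1, which encodes β-catenin, differed by -0.09 (adjusted p 0.784).

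**Figure D3:**
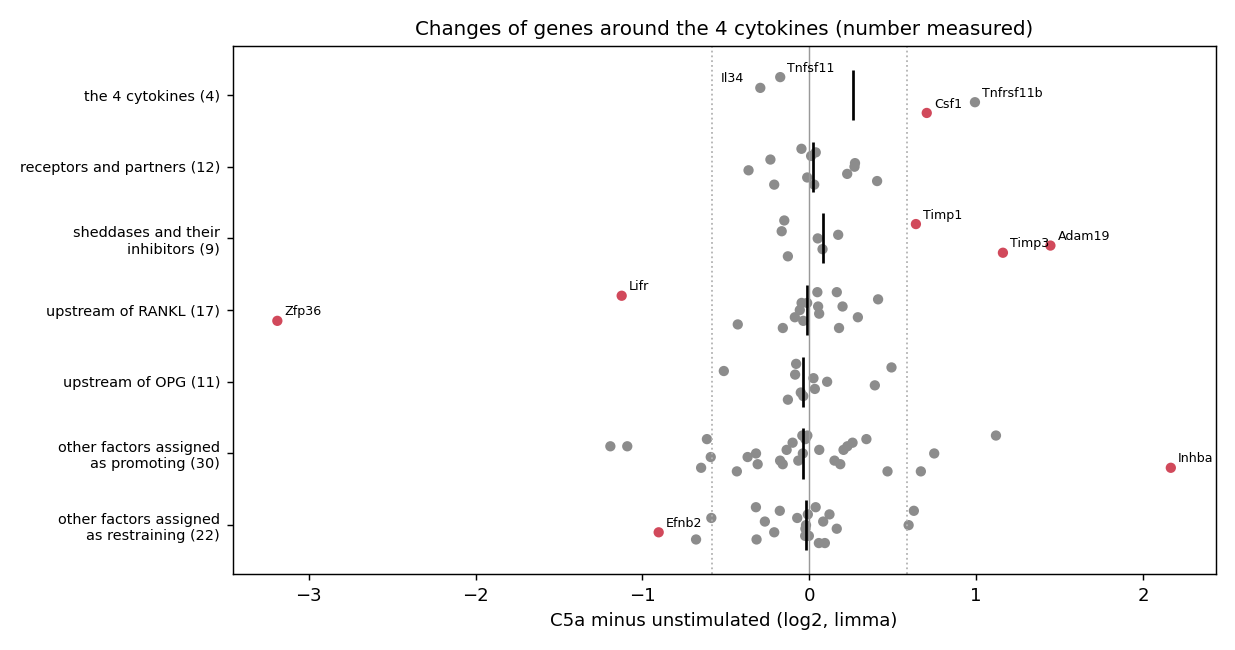
Change with C5a (log2, C5a minus unstimulated) of each measured gene in 7 groups around the 4 cytokines, with the number measured in brackets. Black bars are group medians, dotted lines mark a 1.5-fold change, and red points passed the methods' thresholds with limma. Zfp36 lies at -3.19 and Inhba at 2.17, and the medians of the 6 lists lie between -0.04 and 0.08.

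Other genes by which osteoblasts or their neighbours can act on the osteoclast lineage were split by assigned role, and most differed little. Of 30 factors assigned as promoting osteoclast formation, 1 passed the methods' thresholds (3.33%, against 3.53% of all genes), and the median change was -0.04. This was Inhba, the subunit of activin A, at 13.09, 12.54 and 12.70 with C5a in mice 2, 4 and 5 against 9.65, 11.11 and 11.07 without, a 4.49-fold difference (log2 2.17, standard error 0.42, adjusted p from limma 0.172). The groups did not overlap, and mouse 2 differed most because its unstimulated culture was low. Ptges, which encodes a synthase of prostaglandin E2, was 1.38-fold higher without overlap (adjusted p 0.152), below the fold threshold. Tnfsf13b differed by -0.16 (adjusted p 0.522). With the mouse as a block, Inhba, the cytokine Il11 and the chemokine Cx3cl1 passed as higher and Osm, which encodes oncostatin M, and the chemokine Cxcl5 as lower. Of all 19938 genes, 443 passed as higher and 440 as lower in the blocked fit.

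Of 22 factors assigned as restraining osteoclast formation, 1 passed the methods' thresholds (4.55%, against 3.53% of all genes), and the median change was -0.02. Efnb2, a membrane ligand of Eph receptors, measured 7.08, 7.92 and 8.05 with C5a against 9.13, 8.19 and 8.44 without, 1.87-fold lower without overlap (adjusted p from limma 0.415). It did not pass with the mouse as a block, where Tgfb1 and Tgfb2 passed as higher and Il18 and Sema3a as lower. The blocked fit passed 443 of all 19938 genes as higher and 440 as lower. Ephb4, a receptor of Efnb2, differed by -0.32, also without overlap (adjusted p 0.371). For both genes the share of all genes without overlap in this direction was not counted. Il18 differed by -0.68 and Tgfb1 by 0.63, with overlap in both.

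Over all 13 lists, markers included, 183 of 193 genes were measured, and 9 passed the methods' thresholds as higher and 4 as lower (7.10%), against 380 and 323 of 19938 genes (3.53%). Because the lists were chosen with earlier results of these data known, the difference between these shares is not a result about the lists. With the mouse as a block the counts were 15 and 10 in the lists and 443 and 440 over all genes. Of the 13 genes, Adam19, Zfp36, Lifr, Inhba and Nfatc1 passed these thresholds in all 9 fits that left out a culture or a mouse. Timp3 missed them without mouse 5 and Cspg4 without mouse 4, and Timp1, Efnb2, Sox9, Cnn1, Tagln and Des passed in 2 to 4 of the 9 fits.

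Some markers of other cells differed with C5a at the methods' thresholds. Of 10 smooth muscle and pericyte markers, 4 passed these as higher, Cspg4 (log2 1.70), Cnn1 (0.63), Tagln (0.70) and Des (1.30), against 380 higher of all 19938 genes. Their adjusted p from limma was 0.283, 0.373, 0.411 and 0.442 in this order, and of the 4 only Cspg4 also passed with the methods' t-test. Pdgfrb (0.68) passed in the blocked fit but not without the block. The median of the list was 0.37, and within mice 2, 4 and 5 it was 0.73, 0.34 and 0.11, so that mouse 2 was highest here as it was for Tnfrsf11b. The summed level of the 10 ran between 89.7 and 93.2 with C5a and between 81.2 and 92.1 without, and Acta2, the smooth muscle actin, differed by 0.11. The part of these cells or genes in the changes of the cytokines was not tested. Of the 25 macrophage and osteoclast markers, 1 passed (4%, against 3.53% of all genes), Nfatc1, 2.42-fold higher (adjusted p from limma 0.205). With the mouse as a block Itgb3, an integrin subunit, passed too, 2.11-fold higher (adjusted p from limma 0.0796). That fit passed 443 of all 19938 genes as higher. Both genes were higher in 3 of 3 mice, as were 18.3% of probesets and 3791 of the 19938 genes. Nfatc1 encodes a transcription factor that osteoblasts also express. The median of the list was -0.15, with summed levels of 165.8 to 225.3 with C5a and 159.9 to 230.8 without. Osteoblast, lymphocyte, endothelial and adipocyte markers gave no call among 16, 8, 10 and 9 measured genes without the block. With the mouse as a block, Dlx5 of the osteoblast markers (-0.68) and Lpl and Plin4 of the adipocyte markers (-0.64 and -0.63) passed as lower. In that fit 440 of all 19938 genes passed as lower. Of 10 chondrocyte markers 1 passed without the block, Sox9, a transcription factor of cartilage and of skeletal progenitors. It was lower at -0.71 (adjusted p from limma 0.42), and 323 of all 19938 genes passed as lower.

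**Figure D4:**
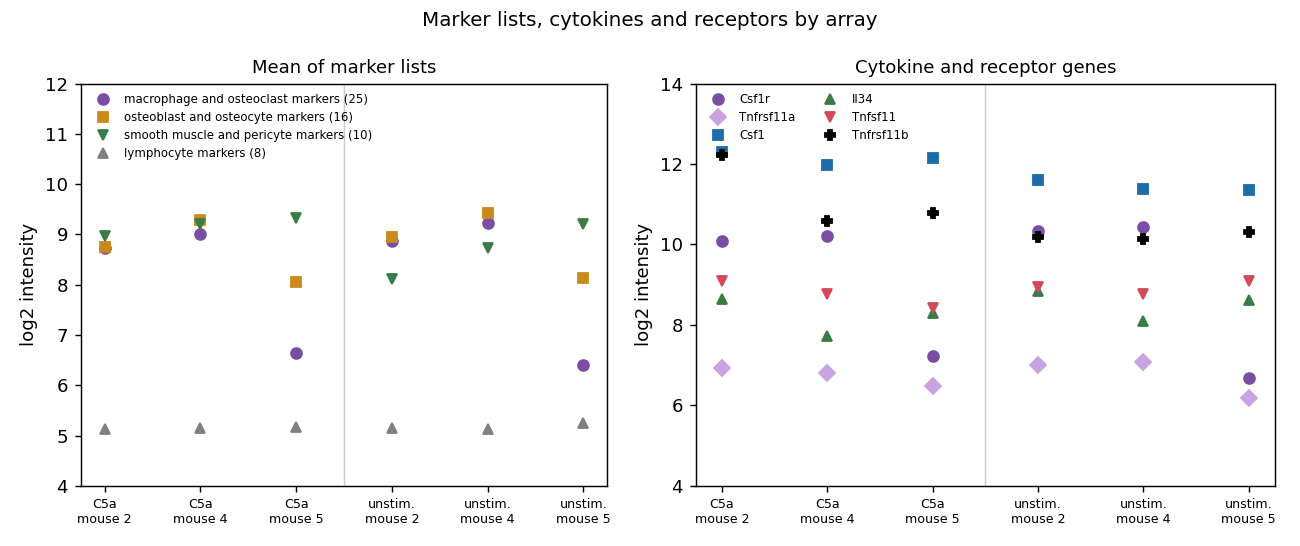
Left, mean log2 intensity of 4 marker lists on each array (number of genes in brackets). Right, log2 intensity of the 4 cytokine genes and the receptor genes Csf1r and Tnfrsf11a. Macrophage markers and Csf1r are low on both arrays of mouse 5, where Csf1r measured 7.23 with C5a and 6.68 without, while the cytokine genes show no such drop. Heights of different genes are not comparable, since probesets differ in scale.

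The 4 genes were then set beside the other genes by their pattern over the 6 arrays. Candidates were 3343 genes that named 1 gene and had an SD of at least 0.3, and the correlations describe 6 arrays that share 3 mice and 1 normalization. Among the 4 genes themselves, Tnfrsf11b and Csf1 had r = 0.807 and Tnfsf11 and Il34 r = 0.532, and the other 4 pairs lay between -0.258 and 0.246. Tnfrsf11b was most like Il11 (r = 0.997), the kinase gene Map3k6 (0.992) and Nfkbie, which encodes an inhibitor of NF-κB (0.991), and 127 candidates were above 0.9. Il11 measured 7.91, 5.898 and 6.02 with C5a in mice 2, 4 and 5 and 5.50, 5.41 and 5.57 without, so that the C5a culture of mouse 2 stood out for Il11 as it did for Tnfrsf11b. Nfkbie measured 8.52, 7.60 and 7.62 with C5a and 7.43, 7.38 and 7.36 without. Hence the likeness in both rests largely on 1 array.

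Csf1 was most like Srxn1, which encodes the antioxidant enzyme sulfiredoxin (r = 0.987), the nucleolar protein gene Gnl3 (0.986) and the ubiquitin ligase gene Smurf2 (0.986), with 178 candidates above 0.9. All 3 passed the methods' thresholds as higher with C5a, Srxn1 at 3.51-fold, Gnl3 at 1.67-fold and Smurf2 at 1.83-fold. Their selection by likeness to Csf1, which separated the groups on the same arrays, made this likely beforehand. Il34 was most like Aplp2 (0.992), Cxcl5 (0.988) and Il17rc, a receptor subunit for IL-17 (0.983), with 69 candidates above 0.9. Cxcl5 showed the order of the mice most widely, at 10.40, 6.40 and 9.15 with C5a in mice 2, 4 and 5 and 11.67, 7.40 and 10.17 without. Tnfsf11 had only 2 candidates above 0.9, the small nucleolar RNA gene Snora16a (0.962) and the zinc finger gene Zfp74 (0.916), followed by the prostaglandin F receptor gene Ptgfr (0.862). All 3 were lowest in the C5a culture of mouse 5.

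After the level of each mouse was removed, only the 3 changes with C5a shape the pattern, and many genes then reached high values, with 66, 499, 598 and 556 candidates above 0.9 for Tnfsf11, Tnfrsf11b, Csf1 and Il34. The leading genes were Thbs3, Pde1a and Pctp for Tnfsf11, Zdhhc13, Bysl and Nfkbie for Tnfrsf11b, and Cmklr1, Prdx1 and Cx3cl1 for Csf1, and Nbea and Tbxa2r were among those for Il34. Nfkbie was thus near Tnfrsf11b by both measures, with changes of 1.09, 0.22 and 0.27 in mice 2, 4 and 5, against 2.05, 0.45 and 0.48 for Tnfrsf11b.

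**Figure D5:**
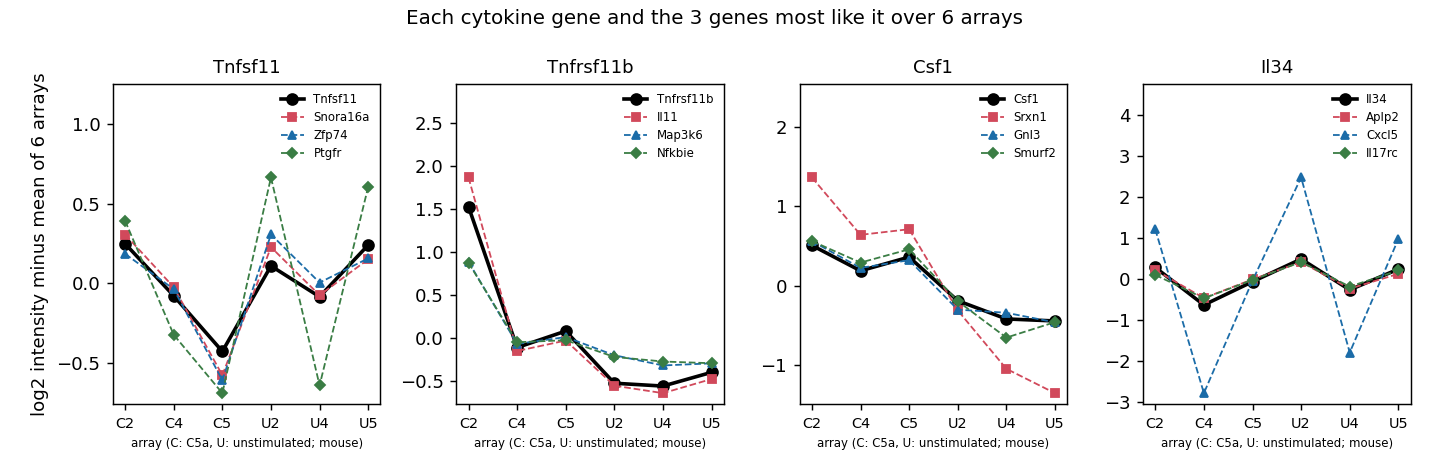
Log2 intensity minus the mean of the 6 arrays for each cytokine gene (black) and the 3 genes most like it (C, C5a, U, unstimulated, with the mouse number). Scales differ between panels. The C5a array of mouse 2 is high for Tnfrsf11b, Il11, Map3k6 and Nfkbie, all C5a arrays are high for Csf1 and its 3 genes, and the C5a array of mouse 5 is low for Tnfsf11 and its 3 genes.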

How the data were processed

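RNA of 3 C5a-stimulated and 3 unstimulated osteoblast cultures was hybridised to Mouse Gene 1.0 ST arrays, 1 array per culture. The authors used Affymetrix Expression Console with BRB-ArrayTools and deposited log2 intensity values per probeset, summarised by RMA, the robust multiarray average. Program versions, and whether the normalization took in further arrays, are not given in the sources used here. RMA forces the arrays to a common distribution, so that a change shared by most genes would not be seen.

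The C5a and unstimulated groups were compared over 35556 probesets with limma 3.58.1 in R 4.3.3 (lmFit and eBayes, no filter, Benjamini-Hochberg adjustment over all probesets), unpaired, since the study's methods name a t-test without stating a pairing, after the step was tested on simulated data. Of the probesets, 21789 named 1 gene, 1621 several and 12146 none in the platform annotation, and the probeset with the highest mean represented each of the 999 genes with more than 1. The series text says that the cells of each mouse were split between the groups, so the mouse number pairs the cultures. Deviations from the group means correlated at 0.495 to 0.684 between the 2 cultures of a mouse and at -0.446 to -0.035 between mice, and a second fit took the mouse as a block. Alternatives were other forms of the t-test, a variance trend, a filter on dim probesets, probesets with 1 gene only, median centring, quantile normalization and leaving out arrays or mice. No other probeset of a member was there to be tried. The study's fold threshold, written as at most 1.5, was read as at least 1.5.

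The genes and lists were chosen with earlier results of these data known. Named are the 4 genes, in each list up to 4 genes with the smallest p and those past a threshold, and the 3 genes most like each member. Genes outside this rule, such as receptors of known inducers, were chosen after their values were seen. A few results are not reported here. Sequences came from RefSeq, whose promoter table held 2 of the 4 genes.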

Additional observations from a re-analysis of the deposited data

How the results depend on the processing

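None of the 4 genes passed the adjusted threshold under any of 18 alternatives, where adjusted p ran from 0.658 to 0.997 for Tnfsf11, 0.27 to 0.829 for Tnfrsf11b, 0.0869 to 0.777 for Csf1 and 0.164 to 0.987 for Il34. Tnfsf11 turned direction without both cultures of mouse 5 (0.073), and the other 3 kept theirs under all 18. Leaving out 1 culture or 1 mouse, log2 differences ran from -0.34 to 0.073 for Tnfsf11, 0.46 to 1.30 for Tnfrsf11b, 0.63 to 0.79 for Csf1 and -0.50 to -0.05 for Il34, and those of the log2 ratios from -1.53 to -0.79 for Tnfsf11 to Tnfrsf11b and 0.83 to 1.17 for Csf1 to Il34. Csf1 passed the methods' thresholds under all 18 alternatives, and Tnfrsf11b with the replicate block and without the C5a culture of mouse 4.

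The 5 probesets past the adjusted threshold became 0 with the methods' t-test, the Welch form and the paired t-test, and 0 to 2 when a culture or mouse was left out. The 923 past the methods' thresholds became 510 with the Welch form and 517 with the paired t-test, and 587 to 1314 when a culture or mouse was left out. Of the listed genes 13 passed the methods' thresholds, 25 with the replicate block, 7 with the methods' t-test, and 7 to 15 when a culture or mouse was left out. Causes were not tested. With 3 mice, neither exact test could reach 0.05, and the replicate block changed no other call of the 4 genes.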
